A study of Mus musculus with 7 samples.

Results

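The genes described here handle glutathione, peroxides and iron, and their transcripts were measured in 7 inhibitory neurons of the mouse hippocampus. They were chosen by symbol: glutathione S-transferases, peroxiredoxins, glutathione peroxidases, thioredoxins and their reductases, superoxide dismutases, catalase, the enzymes that make and recycle glutathione, Nqo1, the haem oxygenases, and 4 genes of iron storage and transport. Symbols marked as pseudogenes were left out. The rule gave 55 genes of 21414 named in all 7 tables, and all 55 were among the 20637 of those that are protein-coding. Each library came from 1 neuron of an untreated VIP-eGFP mouse, a strain with green fluorescent protein under control of the Vip gene. The neurons lay in the stratum oriens/alveus of CA1, were recorded in acute slices with a patch pipette, and were kept when their axon reached the subiculum. The labels give no age and tie no cell to an animal, so the 7 cells form 1 group with no comparison group, and no p-value was made from them.

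Levels are in transcripts per 1000000 (TPM), which correct for transcript length, and a gene was called detected above 1 TPM. Vip and Gad1, which marks GABA neurons, were detected in 7 of 7 cells, as were all 6 pan-neuronal marker genes. The libraries held 1052327 to 3398521 estimated counts. The table of cell 7 lists Ensembl transcripts and those of cells 1 to 6 list RefSeq transcripts, so levels set side by side across them come from separate normalizations. Protein-coding genes named in all tables took 13.1% of named TPM in cell 6 and 72.8% in cell 7. Where this scale bears on a result, values rescaled to 1000000 over those protein-coding genes are given too.

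Neurons make hydrogen peroxide in respiration and transmitter turnover, and clear it with thiol enzymes. Peroxiredoxins pass electrons from thioredoxin to peroxides, while glutathione peroxidases use the tripeptide glutathione, which glutathione S-transferases also attach to reactive compounds. Iron turns peroxide into hydroxyl radicals, so cells lock it inside ferritin, a shell of heavy (Fth1) and light (Ftl1) chains. In brain, ferritin is rich in oligodendrocytes and microglia, Gstp1 is widely used as an oligodendrocyte marker, and Gstm1 and Prdx6 are prominent in astrocytes.

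The sequences of 3 sets of these genes show features that the symbol rule did not use. The first is the iron-responsive element, an RNA hairpin bound by iron regulatory proteins. In a 5′ untranslated region it blocks translation when iron is low, and in the 3′ region of the transferrin receptor transcript it protects the RNA. The search asked for C, any 5 bases, CAGTGN and 5 bases that pair with the first 5 (Watson-Crick or G-T), on the transcript strand. In 1 GENCODE M21 transcript per gene (mm10), 4 of the 55 genes had a match in an untranslated region, and they were the 4 iron genes. Of all 21862 genes searched, 126 had one (0.576%). Capitals mark the CAGTGN loop in these 30-base windows, shown because the hairpin is what the 4 genes share in sequence. The windows are at chr19:9982732-9982761 (plus strand) for Fth1, chr7:45459778-45459807 (minus) for Ftl1, chr1:45925464-45925493 (minus) for Slc40a1, and chr16:32631219-32631248 (plus) for the first of 4 in Tfrc.
Fth1 5′ UTR: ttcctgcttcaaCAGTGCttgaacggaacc
Ftl1 5′ UTR: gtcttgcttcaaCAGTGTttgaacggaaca
Slc40a1 5′ UTR: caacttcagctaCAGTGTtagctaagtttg
Tfrc 3′ UTR: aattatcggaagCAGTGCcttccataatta

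The second set carries selenocysteine, an amino acid that is read from an in-frame TGA codon and forms the reactive centre of several peroxidases. Of the 55 genes, 7 had an in-frame TGA in the coding sequence: Gpx1, Gpx2, Gpx3 and Gpx4 and the 3 thioredoxin reductases. The coding windows of the 5 of these genes above 1 TPM in at least 1 neuron are shown with that codon in capitals. They lie at chr9:108339439-108339465 for Gpx1, chr11:54907244-54907270 for Gpx3, chr10:80054725-80054751 for Gpx4, chr10:82896025-82896045 for Txnrd1 and chr16:18477760-18477780 for Txnrd2, all on the plus strand of mm10. In the peroxidases the codon is number 47 of Gpx1 and number 73 of Gpx3 and of Gpx4. In Txnrd1 it is number 498 of 499 and in Txnrd2 number 526 of 527, the last but 1 before the stop in each.
Gpx1: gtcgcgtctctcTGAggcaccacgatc
Gpx3: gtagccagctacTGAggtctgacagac
Gpx4: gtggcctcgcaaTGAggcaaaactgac
Txnrd1: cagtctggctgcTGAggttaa
Txnrd2: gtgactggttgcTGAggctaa

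The third set is the pair Gstp1 and Gstp2, neighbours on chromosome 19 that matter for how reads are assigned. Their coding sequences, 633 bases each, differed at 12 positions (98.1% identity). Gstp1 took counts in every cell and Gstp2 took none in any. The stretch with the most differences inside 1 exon, coding bases 271 to 330, holds 5 of them, in capitals. It lies at chr19:4036694-4036753 for Gstp1 and chr19:4040988-4041047 for Gstp2, both on the minus strand.
Gstp1: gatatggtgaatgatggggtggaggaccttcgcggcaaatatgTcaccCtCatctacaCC
Gstp2: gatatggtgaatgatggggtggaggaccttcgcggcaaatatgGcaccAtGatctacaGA
Within the coding sequence, a read that covers no such position cannot tell the copies apart. The untranslated parts were not compared, so the values of Gstp1 are uncertain to an extent that is not known. In the table of cell 7, its counts were divided evenly over a pair of transcript rows.

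A small core of these genes was found in every neuron. Of the 55, 7 genes (12.7%) were above 1 TPM in 7 of 7 cells: Fth1, Ftl1, Gpx1, Gpx4, Prdx2, Prdx5 and Gstp1. Of all 20637 protein-coding genes, 2.96% were. In 4 or more cells, 21 members (38.2%) were above 1 TPM, against 19.1% of all protein-coding genes. Another 12 members (21.8%) were detected in 1 to 3 cells, against 36.3%, and 22 (40.0%) in no cell, against 44.7%. Members were chosen as pathway genes with results of these data known, so these shares are a description of the 55 genes. A median of 20 members was detected per cell, with 18 in cells 6 and 7 and 25 in cell 2, the library with the most counts.

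**Figure D1:**
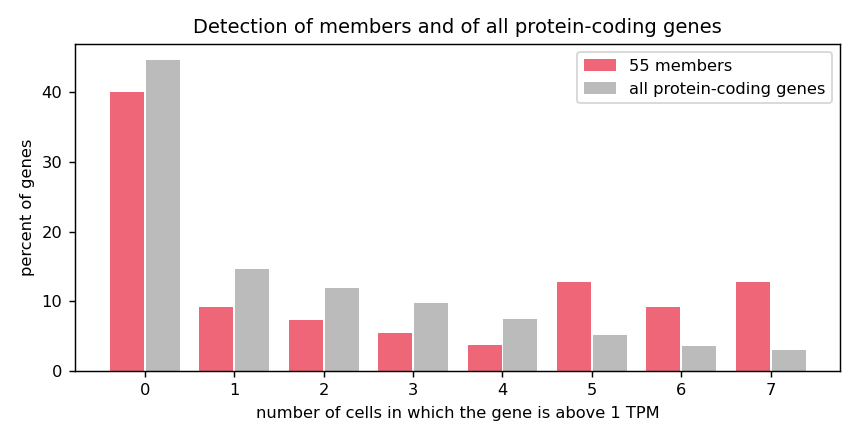
Percent of genes (y axis) by the number of cells in which they were above 1 TPM (x axis), for the 55 members (red) and 20637 protein-coding genes (grey). The members' share is larger at 5, 6 and 7 cells, where it is 12.7% at 7 cells against 2.96%.

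The core genes were also highly expressed. Their median mean level was 8.20 on the log2(TPM + 1) scale, against 6.30 for the 611 protein-coding genes detected in every cell. Their median SD between cells was 1.21, against 1.56 for those 611 genes. Over the 21 members detected in 4 or more cells the median SD was 2.34, the same value as for the 3932 protein-coding genes that met that rule. The median mean level of these members was 5.94, against 3.18 for those genes. Both comparisons of SD thus set members beside genes of lower level, and level was not matched.

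**Figure D2:**
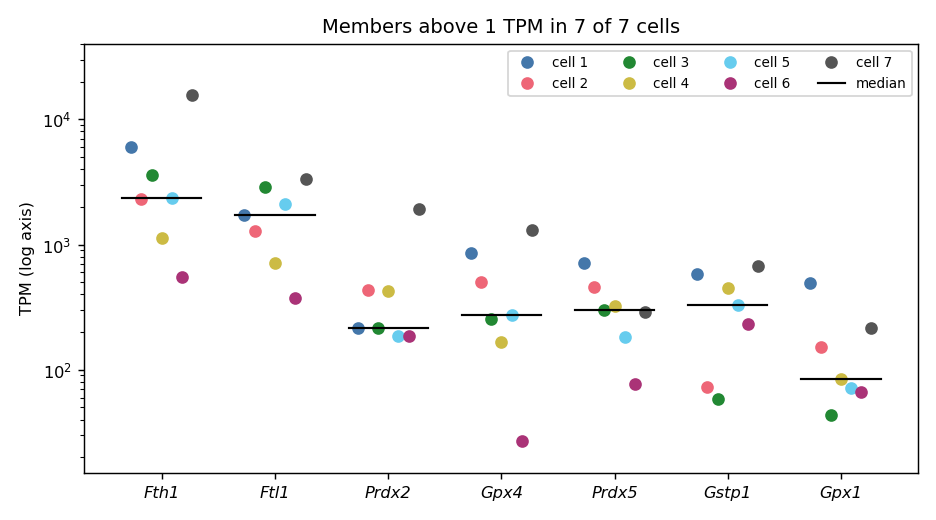
TPM on a log axis for the 7 genes detected in every cell, with 1 point per cell and a bar at the median. Fth1 is the highest of the 7 by median (2354 TPM) and spans 549.7 to 15779 TPM.

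Among the iron genes, both ferritin chains stood far above the genes that move iron across membranes. Fth1 (mm10, chromosome 19, 9980598 to 9985098, plus strand) was at 6002, 2300.1, 3566, 1123, 2354, 549.7 and 15779 TPM in cells 1 to 7. It ranked between 2nd and 30th of 20637 protein-coding genes within each cell. Ftl1 (chromosome 7, 45457944 to 45459884, minus strand) was at 1737, 1273, 2861, 719, 2118, 375 and 3355 TPM in the same order. Cell 7 was the highest for both chains and cell 6 the lowest. On the rescaled values Fth1 still peaked in cell 7 (21769 TPM) but was lowest in cell 4 (3466), and Ftl1 was highest in cell 3 (11107) and lowest in cell 2 (2182).

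The heavy chain exceeded the light chain in 7 of 7 cells. The ratio was 3.45, 1.81, 1.25, 1.56, 1.11, 1.47 and 4.70 in cells 1 to 7, with cells 1 and 7 apart from the rest, and did not depend on the scale of a table, since both genes share it. The mean difference was 0.93 ± 0.78 on the log2(TPM + 1) scale (SD, n = 7 cells), so it was little larger than its spread. Both chains have many processed copies in the genome, and reads from such copies could not be separated here.

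Tfrc, the transferrin receptor that imports iron, reached 35.6 TPM in cell 2 (386 counts) and 29.7 in cell 3 (379 counts). In the other cells it was at or below 0.801 TPM. On the rescaled values Tfrc also passed 1 TPM in cell 6 (6.11 TPM, 12 counts) and in cell 1 (1.76 TPM, 5 counts). Slc40a1, which encodes ferroportin, the iron exporter, was above 1 TPM in cell 3 alone, at 4.76 TPM or 39 counts. Cell 3 was thus the one library with all 4 iron genes, and it also had the highest level of the microglial marker list (6.10 on the log2 scale, 9 of 10 markers detected). The part of microglial RNA in the Slc40a1 value was not tested.

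**Figure D3:**
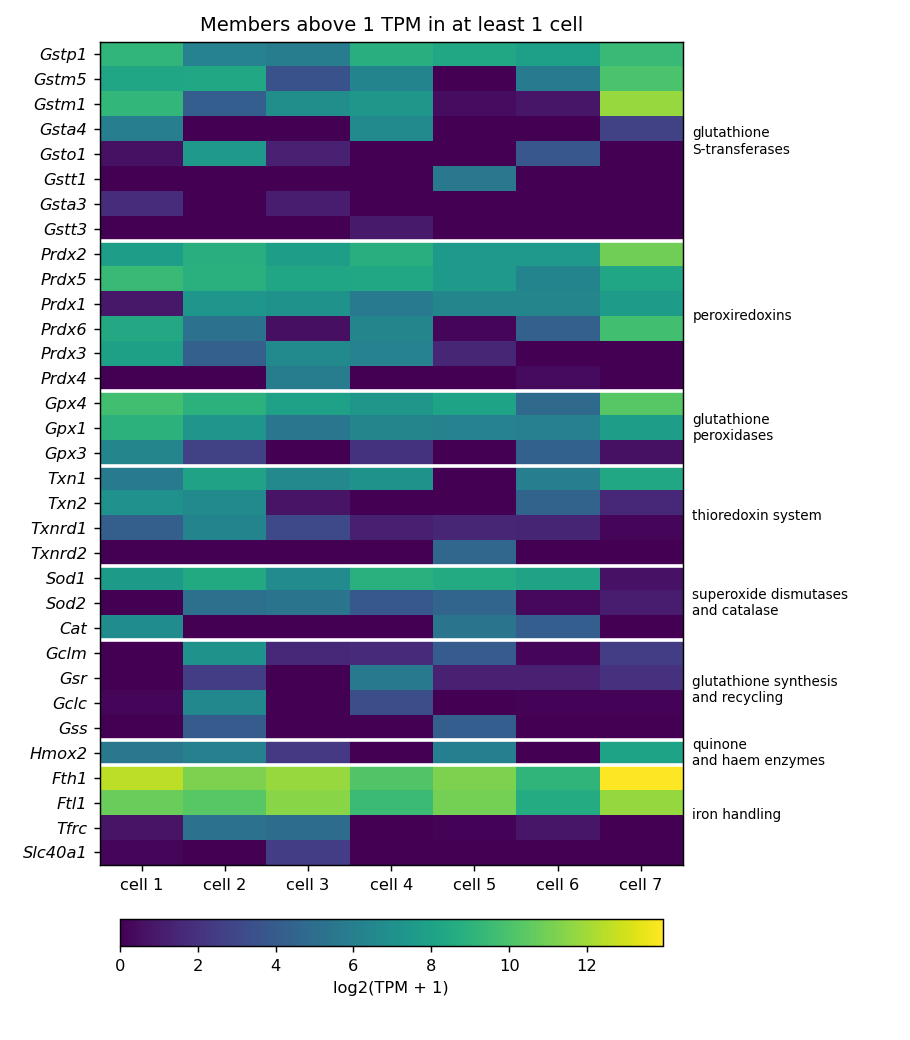
log2(TPM + 1) of the 33 members above 1 TPM in at least 1 cell (rows, by family) in the 7 cells (columns); yellow is high and dark purple is 0. Fth1 and Ftl1 form the brightest rows, and most glutathione S-transferases and all genes of glutathione synthesis are dark in several cells.

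The 55 genes together held a median of 1.86% of protein-coding TPM per cell, from 1.22% in cell 2 to 4.10% in cell 7. In estimated counts, which are not divided by transcript length, the median share was 0.884%. The ferritin pair made up 40.8% of the members' TPM in cell 4 and 80.2% in cell 3. Without it, the other 53 genes held 0.518% in cell 5 and 1.46% in cell 7. Cells 1, 3 and 7 had the largest total shares, and in cell 3 the other 53 genes held 0.615% of the 3.11%.

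**Figure D4:**
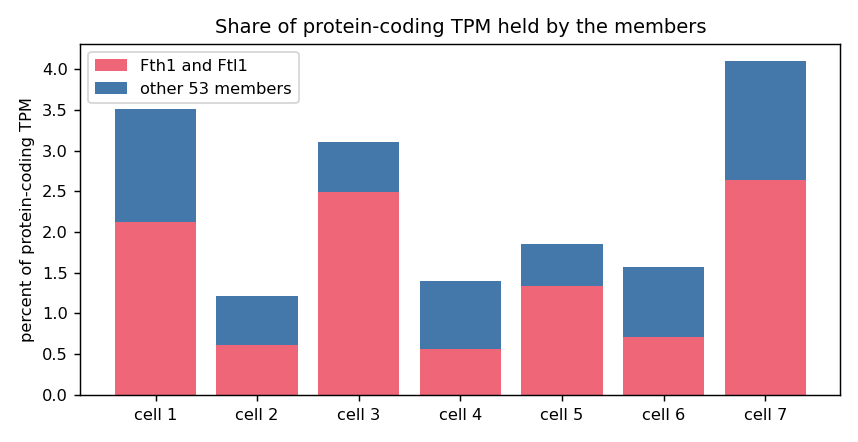
Percent of protein-coding TPM (y axis) held by Fth1 and Ftl1 (red) and by the other 53 members (blue) in each cell (x axis). The total is 3.50% in cell 1, 3.11% in cell 3 and 4.10% in cell 7, and between 1.22% and 1.86% in the others.

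Peroxiredoxins were the family with the largest share of members detected in 4 or more cells (5 of 6). Of all protein-coding genes, 19.1% were. Prdx2 (chromosome 8, 84969587 to 84974834, plus strand), a cytosolic enzyme abundant in neurons and red blood cells, was at 215, 431, 216, 423, 186, 187 and 1933 TPM in cells 1 to 7. Cell 7 lay well above the other 6, of which 4 lay between 186 and 216 TPM. On the rescaled values cell 7 stood at 2667 TPM, and the other 6 ranged from 556 TPM (cell 5) to 1431 TPM (cell 6). In cell 7 the leading transcript, of 549 bases, took 38.2% of the TPM of the gene. The 5 red blood cell markers summed to 104, 10494, 1781, 3388, 801, 962 and 426 TPM in the same order. By TPM, cells 2 and 4 were the highest of cells 1 to 6 for Prdx2 and for these markers. Cell 7, the highest for Prdx2, was the second lowest for the markers. Rescaled Prdx2 was instead highest of cells 1 to 6 in cell 6 (1431 TPM) and cell 4 (1305 TPM), with 738 TPM in cell 2. The marker sums were not rescaled. The part of red blood cell RNA in the Prdx2 values was not tested. Prdx5 (chromosome 19, 6906697 to 6910106, minus strand), found in mitochondria, peroxisomes and cytosol, was at 709.7, 461, 299, 323, 184, 77.1 and 289.5 TPM. Prdx5 led the family in cells 1, 2 and 3 and Prdx2 in cells 4 to 7. The pair differed by a factor of only 1.01 in cell 5. By estimated counts, which are not divided by transcript length, Prdx2 led in 6 cells. By the highest transcript alone it led in 3.

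The other peroxiredoxins were present in some cells and near 0 in others. Prdx1, a cytosolic enzyme, had a median of 83.8 TPM and a highest value of 206 TPM in cell 7, but 0.866 TPM (2 counts) in cell 1. On the rescaled values its highest cells were cell 6 (605 TPM) and cell 3 (539 TPM), with cell 7 at 284 TPM and cell 1 still the lowest. The value of cell 7 rests on a short transcript of 553 bases that took 99.7% of the TPM of the gene. Prdx6, which also acts on oxidised phospholipids, was at 335, 37.0, 0.504, 84.5, 0.177, 18.4 and 848 TPM in cells 1 to 7. Cells 7 and 1 were the highest, and cells 3 and 5 were below the detection threshold. The mitochondrial Prdx3 was highest in cell 1 (246 TPM), had a median of 18.5 TPM and had no counts in cells 6 and 7 (a floor of 3 counts is 0.657 and 0.695 TPM there). Prdx4, the enzyme of the secretory pathway, was detected in cell 3 alone (57.2 TPM).

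Of the 8 glutathione peroxidase genes, 3 were detected, and all 3 encode selenocysteine enzymes shown above. Gpx4 (chromosome 10, 80047166 to 80056439, plus strand), which reduces lipid peroxides in membranes and restrains ferroptosis, was at 859, 504, 255, 168, 276, 27.0 and 1299.7 TPM in cells 1 to 7. Gpx1 (chromosome 9, 108338903 to 108340343, plus strand), the main cytosolic peroxidase, was at 491, 152, 43.7, 84.5, 71.2, 65.9 and 214 TPM. Cell 1 was the highest for Gpx1 and cell 7 for Gpx4, while cell 3 was the lowest for Gpx1 and cell 6 for Gpx4. On the rescaled values cell 1 was the highest for Gpx4 too (2359.6 TPM, with 1793 TPM in cell 7), and the other extremes stayed in the same cells. Gpx4 exceeded Gpx1 in 6 of 7 cells, by 1.75 to 6.07 times, and lay below it in cell 6, at 0.410 of its level. Gpx3, a secreted enzyme, was detected in cells 1, 2, 4 and 6 and highest in cell 1 (85.0 TPM). Gpx2, Gpx5, Gpx6, Gpx7 and Gpx8 were above 1 TPM in no cell, as were 44.7% of all protein-coding genes. Gpx2 also carries the selenocysteine codon, so that feature alone did not separate detected from undetected peroxidases.

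Glutathione S-transferases were the largest family, and most of its genes were not detected. Of 21 genes, 3 were detected in 4 or more cells, 5 in 1 to 3 cells and 13 in none. The shares of all protein-coding genes were 19.1%, 36.3% and 44.7% in the same order. Gstp1 (chromosome 19, 4035407 to 4037985, minus strand), a cytosolic enzyme, was at 579, 72.5, 58.8, 449, 328, 229.9 and 669 TPM in cells 1 to 7. It was the leading member in cells 4, 5 and 6. On the rescaled values its highest cell was cell 6, at 1755 TPM, in place of cell 7.

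The mu-class genes varied far more than Gstp1. Gstm1 (chromosome 3, 108012255 to 108017973, minus strand) was at 598, 16.8, 116, 168, 0.357, 0.768 and 3492 TPM in cells 1 to 7, with 1 count in cell 5 and 3 in cell 6. Gstm5 (chromosome 3, 107895821 to 107898686, plus strand) was at 288, 327, 10.3, 76.6, 0, 55.4 and 1039.6 TPM. Both were highest in cell 7 and lowest in cell 5. Gstm1 led in cells 1, 3 and 7 and Gstm5 in cell 2 (327 TPM). Their neighbours on chromosome 3, Gstm2, Gstm3, Gstm4, Gstm6 and Gstm7, stayed below 1 TPM in every cell. The coding sequence of Gstm1 is 89.5% identical to that of Gstm3 and 86.0% to that of Gstm2, so these copies differ at more positions than Gstp1 and Gstp2.

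The remaining transferases appeared cell by cell. Gsta4, which acts on the lipid peroxidation product hydroxynonenal, was detected in cells 1, 4 and 7 (61.1, 95.9 and 5.73 TPM). Gsto1, an omega-class enzyme, was detected in cells 2, 3 and 6 (177, 1.43 and 13.1 TPM). Gsta3 was just above the threshold in cells 1 and 3 (2.41 and 1.10 TPM), and so was Gstt3 in cell 4 (1.04 TPM, 3 counts). Gstt1 was found in cell 5 alone, at 46.6 TPM (106 counts). Besides the mu-class genes named above, Gsta1, Gsta2, Gstk1, Gsto2, Gstp2, Gstt2, Gstt4 and Gstz1 were above 1 TPM in no cell.

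Several of these genes were high in the libraries with the most RNA of glial marker genes. Cells 1 and 7, the highest for Gstm1, Prdx6 and Gpx4, also had the highest summed levels of the 9 astrocyte markers (1154 and 2753 TPM, against 29.8 to 235 TPM in the other cells). In cell 7 Aldoc alone was at 2150 TPM and Gja1 at 0, while in cell 1 Gja1 was at 618 TPM. Of the 9 markers, 6 were detected in cell 1, 5 in cell 7 and 5 in cell 4. Gfap, a defining astrocyte marker, was at 0 in all 7 cells and Aqp4 was below 1 TPM in all 7. The 10 oligodendrocyte markers summed to 20793 TPM in cell 7 and to 113 to 1288 TPM elsewhere, and Cldn11 was at 0 in all 7. The 10 microglial markers summed to between 20.3 TPM (cell 6) and 2513 TPM (cell 7). By mean log2(TPM + 1) the microglial list was instead highest in cell 3 (6.10), with 4.78 in cell 7. Tmem119 was below 1 TPM in all 7. Marker sums and levels were not rescaled. The part of RNA from other cells in the levels of Fth1, Gstm1, Gstm5, Prdx6, Gpx4 and Gstp1 was not tested. In cell 5, whose astrocyte list was the lowest (2 of 9 markers detected), Gstm1, Gstm5 and Prdx6 were below 1 TPM and Gstp1 was at 328 TPM. Gstm1 was also below 1 TPM in cell 6 (4 of 9 astrocyte markers detected) and Prdx6 in cell 3 (3 of 9). Gstm5 was at 327 TPM in cell 2, where 3 of 9 were detected. The oligodendrocyte markers of cell 5 summed to 1288 TPM, with Mbp at 874 TPM and Mobp at 311 TPM, the largest sum after that of cell 7. In cell 6, Fth1 and Ftl1 ranked 23rd and 53rd among protein-coding genes. There 1 of 10 microglial markers was detected, and 6 of 10 oligodendrocyte markers, which summed to 404 TPM and included Olig1, Olig2 and Sox10.

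**Figure D5:**
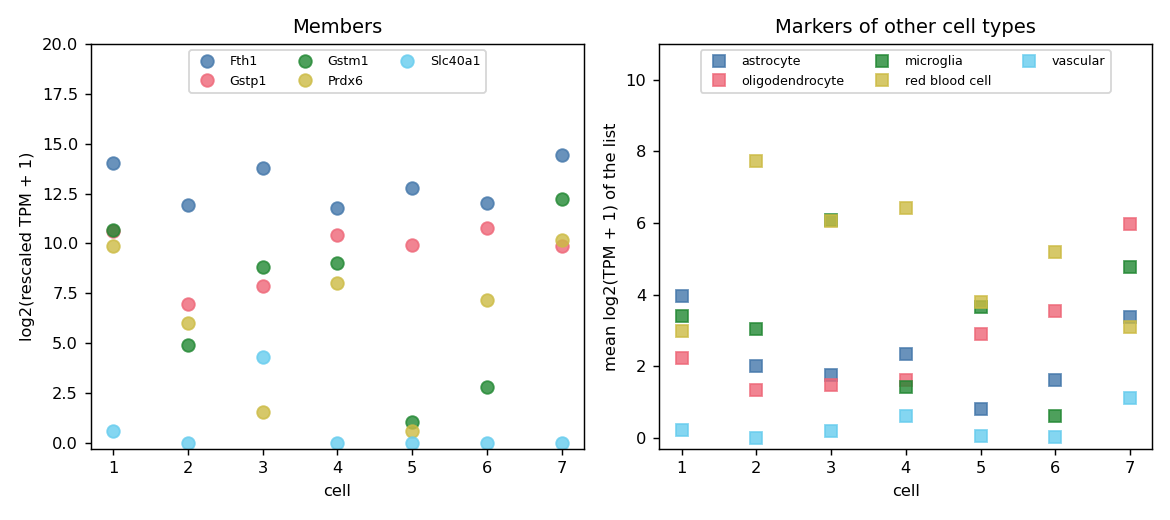
Left, log2(rescaled TPM + 1) of 5 members in cells 1 to 7; right, the mean log2(TPM + 1) of marker lists of other cell types in the same cells. Gstm1 and Prdx6 are highest in cells 1 and 7, where the astrocyte list is highest (3.97 and 3.37), and Slc40a1 in cell 3, where the microglial list is highest (6.10).

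In the thioredoxin system, Txn1, the cytosolic electron donor of peroxiredoxins, was at 53.7, 262, 93.3, 145, 0, 61.9 and 326 TPM in cells 1 to 7. It was thus well above the threshold in 6 cells and had no count in cell 5 (3 counts there are worth 1.32 TPM). Txn2, its mitochondrial counterpart, was detected in cells 1, 2, 6 and 7 (133, 102, 20.8 and 2.04 TPM). Txnrd1, the cytosolic reductase that recharges thioredoxin, was detected in 6 cells with a low median (1.87 TPM), and peaked in cell 2 at 76.0 TPM. The mitochondrial Txnrd2 was detected in cell 5 alone (23.1 TPM), the cell without Txn1 and Txn2. Txnrd3 was above 1 TPM in no cell.

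Superoxide dismutases turn superoxide into hydrogen peroxide. Sod1 (chromosome 16, 90220754 to 90226329, plus strand), the copper and zinc enzyme of the cytosol, was at 191, 349, 105, 455, 366 and 260.1 TPM in cells 1 to 6. In cell 7 it was at 0.617 TPM, or 1 count, in a library of 3225330 counts. The table of cell 7 has 1 transcript row for Sod1, of 646 bases, as those of cells 1 to 6 have 1 of 661 bases. Whether the index or the cell gave this value cannot be told apart. Sod2, the mitochondrial manganese enzyme, was lower than Sod1 in cells 1 to 6, at 39.8 TPM in its highest cell (cell 3) and a median of 13.3 TPM. Sod3, the extracellular enzyme, was above 1 TPM in no cell. Catalase (Cat), a peroxisomal enzyme, was detected in cells 1, 5 and 6 (108, 40.8 and 16.7 TPM). In the rest it was listed at 0, with a floor of 3 counts of at most 0.746 TPM.

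Of the 4 genes that make and recycle glutathione, 2 were detected in 4 or more cells and 2 in 1 to 3 cells. Of all protein-coding genes, 19.1% and 36.3% were. Gclc and Gclm encode the catalytic and modifier subunits of glutamate-cysteine ligase, the first step. Gclm was at 0, 135, 1.95, 2.18, 15.6, 0.148 and 4.87 TPM in cells 1 to 7, and Gclc passed the threshold in cells 2 and 4 (90.2 and 9.17 TPM). Gss, glutathione synthetase, was detected in cells 2 and 5 (15.7 and 17.0 TPM). Gsr, the reductase that recycles oxidised glutathione, had a median of 1.45 TPM and stood highest in cell 4 (49.1 TPM). Cell 2, where Gclm reached 135 TPM, was the one library in which all 4 genes were detected, and cell 1 had none above 1 TPM. Cell 2 was also the deepest library and had 8030 protein-coding genes above 1 TPM, against 3026 to 6766 in the other cells. The part of depth in this result was not tested.

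Among the quinone and haem enzymes, Hmox2, the constitutive haem oxygenase of neurons, was at 47.0, 65.8, 4.05, 0, 63.2, 0 and 272 TPM in cells 1 to 7. Cell 7 was the highest, and there a transcript of 584 bases took 99.8% of the TPM of the gene. Nqo1 and the inducible Hmox1 are classical targets of the transcription factor NRF2 (Nfe2l2). Neither had a count in any of the 7 cells. The floor of 3 counts corresponds to 0.607 to 1.28 TPM for Nqo1 and 0.573 to 1.52 TPM for Hmox1, depending on the library.

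NRF2 binds the antioxidant response element, and the letters TGACNNNGC were searched on both strands of RefSeq promoters (GRCm38.p6, 250 bases before to 50 after the start). Of 47 members with a promoter in that table, 7 (14.9%) held a match, against 14.0% of all 27025 genes. They were Gclm, Gsta3, Gstm5, Gstm7, Prdx1, Sod1 and Txnrd1. A match was found in 5 of the 19 members detected in 4 or more cells and in 1 of the 19 detected in no cell. The same split was not made for all genes, so it does not tie the letters to detection. These counts describe letters in that window and no binding.

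Of a wider list of 61 genes of the same pathways, 4 (6.56%) were detected in 7 of 7 cells, against 2.96% of all protein-coding genes. In 4 or more cells 19 (31.1%) were detected, against 19.1%. Another 28 (45.9%) were detected in 1 to 3 cells, against 36.3%, and 14 (23.0%) in none, against 44.7%. The wider genes thus had a smaller share than the 55 members both in every cell and in no cell. Of 12 glutaredoxins and partners, 6 were detected in 4 or more cells. They included Glrx5, which acts in mitochondrial iron-sulfur cluster assembly (median 119.8 TPM, 0 in cell 7), and Glrx2 (highest in cell 7). Mgst3, a microsomal transferase, had a median of 50.9 TPM and Glrx3 11.4 TPM.

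Of 8 regulators, Nfe2l1 was the one above 1 TPM in every cell (median 8.60 TPM), while Mafg, a small Maf partner of NRF2, passed in 3, and Sqstm1, an autophagy receptor that binds KEAP1, had a median of 116 TPM. Nfe2l2 itself was above 1 TPM in no cell and at most 0.763 TPM, and Keap1 was above 1 TPM in 3 cells. Among 14 genes of cystine and glutathione turnover, Slc3a2 was detected in 7 of 7 cells (1.99 to 437 TPM). Its partner in the cystine transporter, Slc7a11, reached at most 1.82 TPM, while Slc1a1, the neuronal carrier for cysteine and glutamate, was above 1 TPM in 5 cells. Glo1, which clears methylglyoxal with glutathione, had a median of 42.0 TPM and Ggt7 14.7 TPM.

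Of 9 genes of selenium supply and lipid peroxidation, Acsl4 alone was detected in 4 cells, with a median of 1.46 TPM. Selenop, the selenium carrier, was detected in cells 1, 2 and 3 (194, 58.5 and 144 TPM). Secisbp2, which helps ribosomes read selenocysteine codons, was at 42.1 TPM in its highest cell, and Aifm2, a suppressor of ferroptosis, at 53.2 TPM. Of 18 further iron genes, Pcbp1 was detected in 7 of 7 cells (1.05 to 197 TPM) and Pcbp2 in 6, and both encode RNA-binding proteins that also deliver iron to ferritin. Ncoa4, the receptor for ferritin breakdown, was above 1 TPM in 4 cells with a median of 3.94 TPM. Ireb2, which encodes an iron regulatory protein that binds the hairpins shown above, passed the threshold in 3 cells and was highest in cell 2 (58.6 TPM). Trf, transferrin, reached 62.9 TPM in cell 3.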

How the data were processed

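Complementary DNA of 7 single neurons was made with SMART-Seq v4, amplified by 17 PCR cycles and sequenced from Nextera XT libraries, per the labels' protocols. The deposited tables give an estimated count and a TPM value per transcript, per the file headers, with length and effective length. STAR 2.5.2a, kallisto and mm10 are listed, per the submitters' processing notes, without settings or annotation. Counts carry no molecular identifiers, so floors (the TPM of 3 counts at a gene's median effective length) cover counting error only.

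TPM and estimated counts were summed per symbol after missing or date-like symbols were looked up by accession, with pandas 2.3.3 and numpy 2.4.6. Rows without a name held at most 0.482% of TPM and were left out. Log values are log2(TPM + 1). The protein-coding genes and promoters are from RefSeq, and positions and transcript sequences from GENCODE M21. No statistical test was made, since cells of 1 group with no stated animal are not replicates; an SD is the spread between cells. Named were all members above 1 TPM in any cell and up to 4 genes of each wider list by mean level; Nfe2l2, Slc7a11 and Trf were named after their values were seen. The members and lists were chosen with earlier results of these data known. The summary steps were tested on simulated data.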

Additional observations from a re-analysis of the deposited data

Results flagged for a closer look

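On the log2 scale, the gap between 1 cell and its nearest neighbour took over 0.568 of the range for 10 of 44 values examined (9 of 33 genes and 1 family level). Chance gives about 1 in 20 normally spread values, and a gene detected in 1 cell is picked out easily, as 5 of the 9 genes were. These 5 were Gstt1 (46.6 TPM in cell 5), Gstt3 (1.04 TPM in cell 4), Prdx4 (57.2 TPM in cell 3), Slc40a1 (4.76 TPM in cell 3) and Txnrd2 (23.1 TPM in cell 5). Prdx1 was low in cell 1 (0.866 TPM, with 55.3 TPM in the next cell). Txn1 was low in cell 5 (listed at 0, with 53.7 TPM in the next). Sod1 was low in cell 7 (0.617 TPM, with 105 TPM in the next), and with it the mean level of the superoxide dismutases and catalase (0.46, with 3.02 in the next). Prdx2 was high in cell 7 (1933 TPM, with 431 TPM in the next). On the rescaled values, 9 of the 10 were still picked out, and Prdx2 was not. The mean level of the iron genes was picked out on the rescaled values alone (0.604 of the range, with 0.333 on TPM).

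Pseudogene rows outside the 55 genes also took counts above the 3 that a count of 0 allows. Gpx2-ps1 had 104 counts in cell 3 (44.8 TPM), where Gpx2 had none. Ftl2-ps had 30.4 counts in cell 7 (24.8 TPM), the one table that lists it.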

How the results depend on the processing

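Among the alternative values, 218 lay within 1 SD between cells of the value reported or, for counts, within 1.5 times, 15 moved further and 4 changed sign. The first kind includes every count of detected genes but 1: above 0 TPM in place of 1 TPM, 12 genes in place of 7 were found in every cell. Detection counts at 10 TPM, by 10 estimated counts, with the highest transcript and on rescaled TPM stayed within 1.5 times. The mean log2 level of a family depends by construction on the pseudocount. With 0.1, the median level was below 0 for glutathione S-transferases (-1.35), glutathione peroxidases (-0.14), glutathione synthesis (-0.44) and the quinone and haem enzymes (-0.36), and 0.48 for the thioredoxin system, 1.72 for dismutases and catalase and 4.75 for iron genes. With 10, these were 3.98, 4.30, 3.56, 4.16, 4.26, 5.01 and 7.52 in the same order. Without undetected members, the transferases stood at 3.27, the peroxidases at 5.28 and the quinone and haem enzymes at 5.58. On rescaled TPM the peroxidases stood at 2.55. The values within 1 SD still include sizeable shifts, such as the share of protein-coding TPM (1.86%) by estimated counts (0.884%) and without Fth1 and Ftl1 (0.826%), and the thioredoxin level on rescaled TPM (3.05, with 2.07 reported).

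Leaving out 1 cell at a time gave 7 to 9 genes in every cell, 19 to 21 in 4 or more and 22 to 24 in none, with 19.5 to 21 members per cell and a share of 1.72% to 2.48%. The mean difference of Fth1 and Ftl1 was 0.72 to 1.06. No paired analysis was possible because the labels give 1 group. How far depth limits the genes listed at 0 was not tested: cell 7 had the second most counts and the fewest protein-coding genes above 1 TPM.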
